A study of Homo sapiens with 4 samples.

Results

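The genes described here write, copy, remove and read out 2 repressive marks of chromatin, DNA methylation and the methylation of histone H3 at lysine 27. They were chosen by symbol, not by their values, though with earlier results of these data known. They are 10 of the 58825 genes counted in these libraries. DNMT1, DNMT3A, DNMT3B and UHRF1 act in DNA methylation, TET1, TET2 and TET3 in its removal, and EZH2, SUZ12 and EED form the core of Polycomb repressive complex 2 (PRC2). The comparison was made in LoVo cells, a line from a colon adenocarcinoma whose MET receptor is not cleaved and signals without its ligand. MET+ cells, labelled as GFP controls of wild-type genotype, were set against MET-KO cells, made by Cas9 with a guide to MET, a GFP plasmid and puromycin selection, with 2 biological replicates each. KO clones were picked singly and chosen by protein blot, and the sources used here do not say how many clones the 2 MET-KO libraries represent, nor whether the MET+ cells passed through cloning. All cells grew in DMEM with serum, with no ligand or drug added according to the labels.

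Methylation of cytosine in CpG dinucleotides is set up by DNMT3A and DNMT3B and copied after each DNA replication by DNMT1, which UHRF1 brings to hemimethylated sites. The TET enzymes oxidize methylcytosine and so start its removal. PRC2 places methyl groups on lysine 27 of histone H3 through EZH2 or its paralog EZH1, with SUZ12 and EED needed for a stable complex, and Polycomb repressive complex 1 (PRC1) reads that mark. In the intestinal epithelium, both systems are known to hold genes of other lineages silent, and their transcripts are highest where cells divide.

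Libraries were made by QuantSeq, a method that starts from the poly(A) tail and yields 1 fragment near the 3' end per transcript, so that counts do not grow with its length. The totals ranged from 8429142 to 10286552 counts, and levels are given as CPM, counts scaled to a common library size. A count of 0 allows a level of up to 0.292 CPM in the deepest library and 0.356 CPM in the shallowest (the level of 3 counts, for counting error alone). MET itself had 2794 and 3272 counts in the MET+ libraries against 861 and 965 in the MET-KO libraries (log2 fold change -1.96, edgeR's quasi-likelihood test, adjusted p = 1.49e-18). By the same test 7467 of 13801 tested genes (54.1%) passed an adjusted p of 0.05, 27.2% higher and 26.9% lower in MET-KO cells. The groups differed in more than MET. Y-linked genes summed to 14530 counts over 24 genes in MET-KO libraries and to 102 counts over 6 genes in MET+ libraries. The median log2 fold change was 0.50 on chromosome 7 and -0.51 on chromosome 14, against 0.0073 over all tested genes. Of 12 colon epithelial markers, KRT8, KRT18, KRT19, EPCAM and CDH1 were present in every library, while CEACAM5 and CDH17 were at 0 in both MET-KO libraries, with 392 and 487 and with 212 and 229 counts in MET+, and KRT20 was at 0 in both MET+ libraries and CDX1 in all 4. Of the 11 markers tested, 2 rose and 8 fell in MET-KO cells, and the summed level of the 12 was 9727 and 9762 CPM in MET+ libraries, 8321 and 7337 CPM in MET-KO libraries. Blood and endothelial marker lists each summed to at most 1.95 CPM in any library and fibroblast markers to at most 4.24 CPM, with PTPRC, CD3E, CDH5, DCN and COL1A2 at 0 in all 4. The part of these differences in the values below was not tested. Apart from the Y-linked counts, whether they arose from the loss of MET or were carried by the cells that were cloned cannot be told apart here.

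All 10 genes were detected in every library and all passed the filter on low counts. DNMT1, EZH2 and SUZ12 were lower in MET-KO cells, and UHRF1 and TET2 were higher. DNMT3A, DNMT3B, TET1, TET3 and EED did not pass the adjusted p of 0.05. Thus 5 of 10 were called, a share of 50% beside 54.1% of all tested genes, so the machinery as a whole was not called more often than other genes. None of the 5 changed by 1 or more on the log2 scale, while 24.3% of all tested genes did so and were called. The 10 log2 fold changes lay between -0.56 and 0.83, with a median of -0.06. Their median size, without sign, was 0.47 and that of all tested genes 0.48. For 9 of the 10 genes the MET-KO libraries lay on 1 side of the MET+ libraries, as they did for 75.6% of all tested genes.

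**Figure D1:**
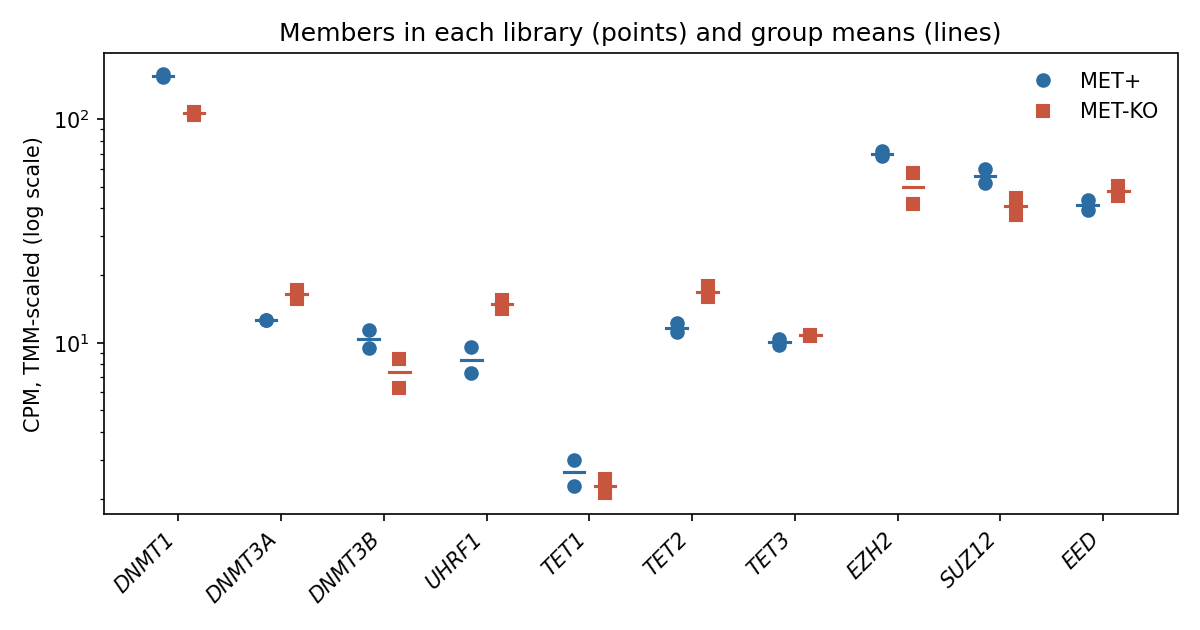
TMM-scaled CPM (log axis) of the 10 genes in each library, with circles for the 2 MET+ and squares for the 2 MET-KO libraries and a line at each group mean. DNMT1 stands highest in both groups and TET1 lowest, and the circles and squares of TET1 alone overlap.

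Levels spanned a wide range. In MET+ cells DNMT1 was the highest of the 10, at percentile 92.2 of all tested genes by mean log2 CPM over the 4 libraries, followed by EZH2, SUZ12 and EED at percentiles 80.4, 75.5 and 73.6. DNMT3A, TET2, DNMT3B, TET3 and UHRF1 followed in that order at means of 12.7 to 8.42 CPM, and TET1 was last at 2.64 CPM. In this order of 3' counts, the MET+ libraries of EZH2, SUZ12 and EED did not overlap each other, whereas TET2 and DNMT3B overlapped, as did DNMT3B and TET3. In MET-KO cells the 3 PRC2 genes lay closer to each other, at 49.7 CPM for EZH2, 48.0 CPM for EED and 40.8 CPM for SUZ12, and the 2 EZH2 libraries spanned the values of EED.

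The promoters are described because those of 4 of the 5 called genes hold a word of a set chosen after the calls were seen. RefSeq promoters (build GRCh38.p14, 250 bases before to 50 after a start site) were found for all 10 genes, and for genes with several start sites the first entry is described. Windows were searched on both strands for 4 words of 8 letters, TTTGGCGC, TTTCGCGC, TTTCCCGC and TTTGCCGC, to which the E2F factors of the cell cycle are known to bind, and for CCAAT, the word bound by NF-Y. An E2F word was present in the first promoter entry of DNMT1, EZH2, SUZ12 and UHRF1, 4 of 10 genes, and in 3.33% of 27305 genes. These 27305 genes, the base of the other promoter shares and of the CpG median below, include genes not tested here. Among the 9908 tested genes that matched a promoter by symbol, 541 held an E2F word. The word CCAAT was present in 5 of 10 and in 35.7% of genes, and 3 of 10 held both words, beside 1.29% of genes. No E2F word overlapped a CCAAT word. Other start sites of these genes differed. EZH2 entry 2 held neither kind of word, and UHRF1 held an E2F word in entry 2 and neither kind in entry 3. The 4 windows are shown with both kinds of word in capitals, on the strand of the gene, because they are the only ones of the 10 first entries with an E2F word. They lie at chr19:10194904-10195203 (minus strand) for DNMT1, chr7:148884242-148884541 (minus strand) for EZH2, chr17:31936757-31937056 (plus strand) for SUZ12 and chr19:4909251-4909550 (plus strand) for UHRF1.
DNMT1: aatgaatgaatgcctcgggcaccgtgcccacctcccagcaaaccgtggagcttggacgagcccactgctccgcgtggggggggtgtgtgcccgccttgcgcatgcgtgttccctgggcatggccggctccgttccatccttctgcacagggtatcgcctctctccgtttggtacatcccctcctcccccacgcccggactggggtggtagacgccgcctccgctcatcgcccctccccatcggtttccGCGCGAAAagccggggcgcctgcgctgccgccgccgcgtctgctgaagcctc
EZH2: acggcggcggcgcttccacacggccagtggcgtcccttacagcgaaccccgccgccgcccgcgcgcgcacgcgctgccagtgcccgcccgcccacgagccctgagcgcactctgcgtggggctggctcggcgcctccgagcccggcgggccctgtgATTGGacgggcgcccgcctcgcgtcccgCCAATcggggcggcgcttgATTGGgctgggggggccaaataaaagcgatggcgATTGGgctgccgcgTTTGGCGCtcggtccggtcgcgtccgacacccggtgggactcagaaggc
SUZ12: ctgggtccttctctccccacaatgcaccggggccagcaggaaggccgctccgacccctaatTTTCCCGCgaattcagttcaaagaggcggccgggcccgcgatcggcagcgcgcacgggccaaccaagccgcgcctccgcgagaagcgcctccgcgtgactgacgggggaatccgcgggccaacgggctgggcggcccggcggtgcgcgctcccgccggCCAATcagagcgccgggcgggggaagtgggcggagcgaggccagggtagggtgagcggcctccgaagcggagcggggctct
UHRF1: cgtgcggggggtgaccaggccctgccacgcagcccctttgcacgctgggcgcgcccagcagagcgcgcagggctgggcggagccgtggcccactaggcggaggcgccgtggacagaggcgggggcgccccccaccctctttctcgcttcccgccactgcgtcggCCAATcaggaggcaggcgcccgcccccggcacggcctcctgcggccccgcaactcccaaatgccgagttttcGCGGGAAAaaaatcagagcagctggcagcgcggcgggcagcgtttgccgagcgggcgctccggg

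The E2F word lies close to the start site in DNMT1, EZH2 and UHRF1, as GCGCGAAA, TTTGGCGC and GCGGGAAA (the first and the last on the other strand), and well upstream in SUZ12, as TTTCCCGC. EZH2 has 4 CCAAT words, read as ATTGG where they lie on the other strand, SUZ12 and UHRF1 have 1 each, and DNMT1 has none in this window. The presence of the word did not go with 1 direction among these genes, since DNMT1, EZH2 and SUZ12 were lower and UHRF1 higher in MET-KO cells. Of 541 tested genes with an E2F word in the first promoter entry, 32.0% were called lower and 20.1% higher, with a median log2 fold change of -0.10, beside 28.6% and 27.1% of the 9908 tested genes that matched a promoter by symbol. The median number of CpG dinucleotides in the 300 bases was 28 for the 10 genes and 14 over all genes. It ranged from 3 in DNMT3B, with TET1 (10) and TET2 (13) also below 14, to 46 in EZH2. The only DNMT3B window, chr20:32779602-32779901, lies inside the gene, which begins at 32762385. That window therefore does not describe the sequence at this 5' end. The UHRF1 window shown above also lies inside its gene, which begins at 4903080, so it does not describe that 5' end either. The other TET2 entry held 35 and the other TET1 entries 6 and 11.

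DNMT1 (ENSG00000130816, chromosome 19, 10133345 to 10231286, GRCh38), the maintenance methyltransferase, had 1274 and 1553 counts in the MET+ libraries against 1097 and 1136 in the MET-KO libraries. Scaled for library size, these were 154 and 159 CPM against 108 and 105 CPM. Both MET-KO libraries were lower than both MET+ libraries, by far more than the gap between replicates. The mean fell from 157 ± 3.85 to 106 ± 2.09 CPM (± SD of 2 libraries, here and below). The log2 fold change was -0.56 with a 95% interval of -0.75 to -0.37 (standard error 0.094, edgeR adjusted p = 5.27e-06, by Benjamini-Hochberg over all tested genes). Among the 873 tested genes on chromosome 19, whose median was 0.0062, this was at percentile 15.1, and the 195 tested genes within 5 Mb had a median of -0.018. The first part of the DNMT1 span given here overlaps S1PR2 on the same strand, which had 64 to 100 counts, far fewer than DNMT1. The promoter window of DNMT1 shown above, at 10194904 to 10195203, lies inside this span and outside S1PR2.

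UHRF1 (ENSG00000276043, chromosome 19, 4903080 to 4962154), which recognizes hemimethylated CpG and recruits DNMT1, moved the other way from its partner. Its counts were 79 and 71 in MET+ and 159 and 153 in MET-KO libraries, or 9.55 and 7.29 against 15.6 and 14.1 CPM. Every MET-KO value exceeded every MET+ value. Its log2 fold change of 0.83 (95% interval 0.41 to 1.24, standard error 0.205, edgeR adjusted p = 0.000957) was the largest rise among the 10 genes. In raw counts, DNMT1 exceeded UHRF1 by 16.1 and 21.9 times in MET+ and by 6.90 and 7.42 times in MET-KO libraries. The paralog UHRF2, a ubiquitin ligase of the same build, dropped from 37.3 ± 0.417 to 23.5 ± 1.31 CPM (edgeR adjusted p = 7.09e-05), a log2 fold change of -0.67. UHRF1 therefore made up 20.5% and 16.2% of the summed UHRF1 and UHRF2 counts in MET+ libraries and 40.9% and 36.6% in MET-KO libraries. The widest exact (Clopper-Pearson) 95% intervals of these shares were 16.6% to 24.9% in MET+ and 35.9% to 45.9% in MET-KO, and no interval of 1 group met one of the other.

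DNMT3A (ENSG00000119772, chromosome 2, 25227855 to 25342590) and DNMT3B (ENSG00000088305, chromosome 20, 32762385 to 32809356), the enzymes that add methyl groups to unmethylated DNA, were both low and differed in opposite directions. DNMT3A had 105 and 123 counts in MET+ and 176 and 170 in MET-KO libraries, 12.7 and 12.6 against 17.3 and 15.6 CPM. DNMT3B had 94 and 92 counts in MET+ and 64 and 92 in MET-KO libraries, 11.4 and 9.44 against 6.28 and 8.47 CPM. The MET-KO libraries lay above MET+ for DNMT3A and below for DNMT3B, without overlap. Neither difference passed the correction over all genes. The log2 fold change of DNMT3A was 0.38 (95% interval 0.012 to 0.74, adjusted p = 0.0753 by edgeR's quasi-likelihood test) and that of DNMT3B -0.49 (95% interval -0.96 to -0.018, adjusted p = 0.0736, the same test). The DNMT3B value rested on single libraries, and was -0.29 without MET-KO replicate 1, -0.63 without MET+ replicate 2 (adjusted p = 0.0365) and -0.72 without MET-KO replicate 2 (adjusted p = 0.0432). The balance of the pair does not depend on library scaling. DNMT3B made up 47.2% and 42.8% of their summed counts in MET+ and 26.7% and 35.1% in MET-KO libraries, and the exact 95% intervals of MET+ replicate 2 (36.1% to 49.7%) and MET-KO replicate 2 (29.3% to 41.2%) overlap. With 2 libraries a group, an exact two-sided permutation test of such a share cannot go below p = 0.333. DNMT1 dominated the 3 methyltransferases throughout, with 86.5% and 87.8% of their counts in MET+ and 82.0% and 81.3% in MET-KO libraries. DNMT3L, the catalytically inactive partner of the germline, had 0 counts in all 4 libraries.

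Of the 3 enzymes that oxidize methylcytosine, TET2 (ENSG00000168769, chromosome 4, 105145875 to 105279816) rose, and TET1 and TET3 did not pass the test. TET2 had 92 and 119 counts in MET+ and 163 and 194 in MET-KO libraries, 11.1 and 12.2 against 16.0 and 17.9 CPM. Its log2 fold change was 0.53 with a 95% interval of 0.16 to 0.91 (standard error 0.183, edgeR adjusted p = 0.0137). The direction was the same in all 4 pairs of libraries, but the call was the weakest of the 5. It was lost with DESeq2's Wald test (adjusted p = 0.127), without MET+ replicate 1 (adjusted p = 0.0505) and without MET-KO replicate 2 (adjusted p = 0.112). TET3 (ENSG00000187605, chromosome 2, 73986404 to 74108176) had 10.4 and 9.75 against 10.9 and 10.7 CPM, a log2 fold change of 0.10 (95% interval -0.32 to 0.52, edgeR adjusted p = 0.708). TET1 (ENSG00000138336, chromosome 10, 68560656 to 68694482), the form known from pluripotent cells, had only 19 to 29 counts in a library and overlapped between groups. At this depth its log2 fold change of -0.22 had a 95% interval of -1.06 to 0.63, which leaves room for levels from 0.48 to 1.54 times that of MET+ cells. Within the TET family, TET2 took 46.7% and 49.0% of the counts in MET+ and 54.5% and 58.3% in MET-KO libraries, with exact 95% intervals that overlap between groups.

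The catalytic subunit of PRC2, EZH2 (ENSG00000106462, chromosome 7, 148807383 to 148884321), had 566 and 702 counts in the MET+ libraries against 428 and 623 in the MET-KO libraries, which were 68.4 and 72.0 against 42.0 and 57.4 CPM. Both MET-KO libraries were lower, but the ratio between them was larger than for the other called genes of the 10. The mean fell from 70.2 ± 2.59 to 49.7 ± 10.9 CPM. The log2 fold change was -0.50 with a 95% interval of -0.74 to -0.25 (standard error 0.121, edgeR adjusted p = 0.000721). MET-KO replicate 1 carried much of this value. Without it the log2 fold change was -0.30 (adjusted p = 0.062), and without MET-KO replicate 2 it was -0.74 (adjusted p = 1.31e-06). EZH2 went against its chromosome. Across 673 tested genes on chromosome 7 the median was 0.50, and across the 52 tested genes within 5 Mb of EZH2 it was 0.485, and EZH2 stood at percentile 11.1 on its chromosome. For the other 9 genes the chromosome median lay between -0.0093 and 0.091.

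SUZ12 (ENSG00000178691, chromosome 17, 31937018 to 32001045), which holds PRC2 together, had 430 and 584 counts in MET+ and 381 and 481 in MET-KO libraries, 52.0 and 59.9 against 37.4 and 44.3 CPM. The groups did not overlap, and the mean fell from 56.0 ± 5.64 to 40.8 ± 4.90 CPM. Its log2 fold change was -0.46 with a 95% interval of -0.70 to -0.21 (standard error 0.119, edgeR adjusted p = 0.00163). SUZ12 has a partial copy nearby, the pseudogene SUZ12P1, with 40 and 39 counts in MET+ and 61 and 86 in MET-KO libraries, and reads from shared sequence could be split between them. Summed over both genes, the level was still lower in MET-KO libraries, at 43.4 and 52.2 CPM against 56.8 and 63.9 CPM. EED (ENSG00000074266, chromosome 11, 86244544 to 86278813), the subunit that binds trimethylated lysine 27, was not lower with its partners. It had 359 and 381 counts in MET+ and 514 and 495 in MET-KO libraries, or 43.4 and 39.1 against 50.4 and 45.6 CPM, a log2 fold change of 0.22 (95% interval -0.020 to 0.46, adjusted p = 0.116, the same edgeR test). Counts of EZH2 per count of EED were 1.58 and 1.84 in MET+ and 0.833 and 1.26 in MET-KO libraries, without overlap, whereas counts of EZH2 per count of SUZ12 overlapped between groups, at 1.32 and 1.20 against 1.12 and 1.30.

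**Figure D2:**
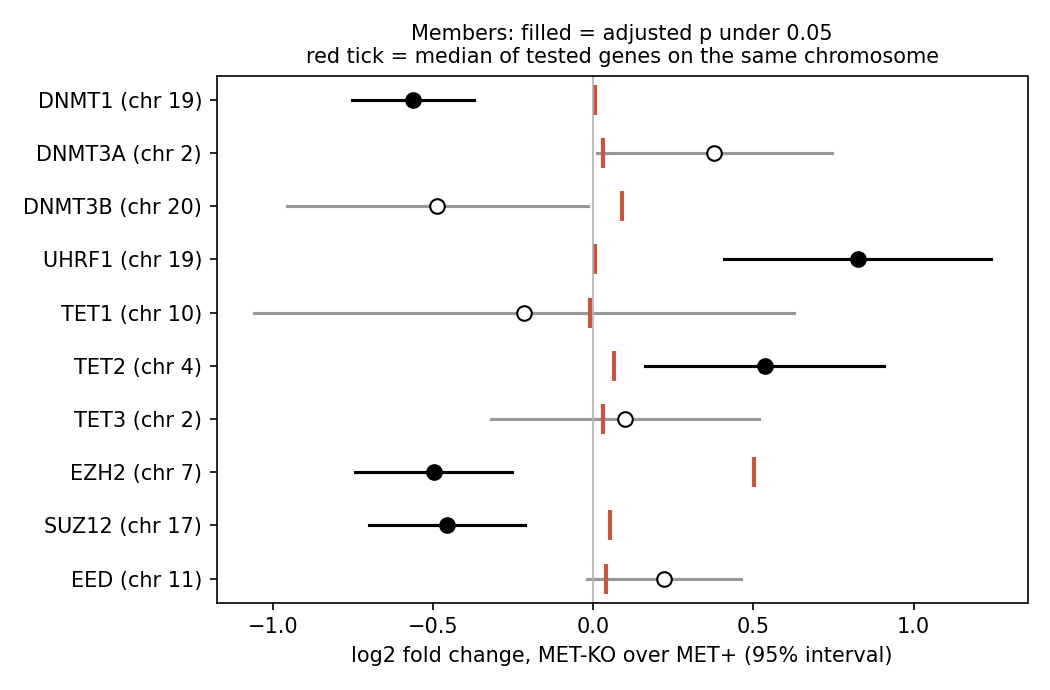
Log2 fold change of MET-KO over MET+ for the 10 genes with 95% intervals not corrected for the number of genes (filled points have an adjusted p under 0.05), and the median of the tested genes on each gene's chromosome as a red tick. DNMT1, EZH2 and SUZ12 lie at -0.56, -0.50 and -0.46, UHRF1 and TET2 at 0.83 and 0.53, and the tick of EZH2 stands apart at 0.50.

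The paralog EZH1, a weaker methyltransferase that is known from cells that do not divide, rose as EZH2 fell. EZH1 had 50 and 66 counts in MET+ and 125 and 131 in MET-KO libraries, a rise from 6.41 ± 0.518 to 12.2 ± 0.137 CPM (log2 fold change 0.92, edgeR adjusted p = 0.000683). EZH2 accounted for 91.9% and 91.4% of the EZH2 and EZH1 counts in MET+ libraries and for 77.4% and 82.6% in MET-KO libraries. The exact 95% intervals of MET+ began at 89.2% and those of MET-KO ended at 85.3%, so that they did not meet. EZH2 remained the larger of both in every library.

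**Figure D3:**
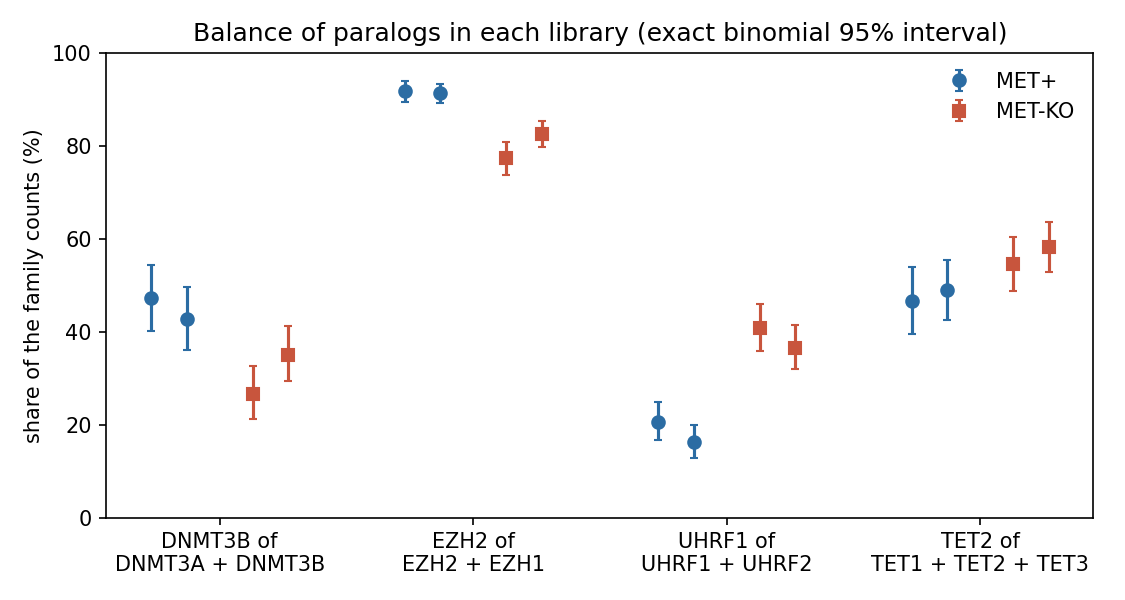
Share of counts (%) that 1 paralog takes of its family in each library, with exact binomial 95% intervals for counting error, circles for MET+ and squares for MET-KO. EZH2 falls from 91.9% and 91.4% to 77.4% and 82.6% and UHRF1 rises from 20.5% and 16.2% to 40.9% and 36.6% with no overlap of intervals, while the intervals of DNMT3B and TET2 overlap between groups.

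Other PRC2 genes went both ways. Of 11 listed partners 10 were tested, and 4 rose and 4 fell, beside 27.2% and 26.9% of all tested genes, the median log2 fold change being -0.14. The 4 higher genes were EZH1, the histone-binding subunits RBBP4 and RBBP7, and JARID2, the accessory subunit that marks the PRC2.2 form of the complex. RBBP4 rose from 69.1 ± 9.22 to 107 ± 0.446 CPM, RBBP7 from 43.3 ± 2.0 to 64.9 ± 2.07 CPM and JARID2 from 33.7 ± 4.36 to 49.5 ± 0.0188 CPM, with log2 fold changes of 0.63, 0.59 and 0.55. The 4 lower genes were PHF1, PHF19, EPOP and LCOR, with log2 fold changes of -0.47, -0.63, -0.46 and -0.54. PHF1, PHF19 and EPOP encode subunits of the other form, PRC2.1, and LCOR does so in an isoform to which gene counts cannot be assigned. The remaining PRC2.1 gene on the list, MTF2, was at -0.023, and AEBP2, the other PRC2.2 gene, at -0.27, and neither passed the test. RBBP4 and RBBP7 also serve other chromatin complexes. The 3' ends of RBBP7 and TXLNG, and of PHF1 and CUTA, overlap on opposite strands, and with no stated strand setting their counts are uncertain. A difference between the PRC2.1 and PRC2.2 forms was not tested.

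PRC1 contains the ubiquitin ligases of histone H2A and the CBX proteins that read lysine 27 methylation. All 25 listed genes were tested, and 4 rose and 9 fell, the median being -0.17. The share called was 52.0%, close to the 54.1% of all tested genes, and DESeq2's Wald test called 2 higher. The catalytic subunit RNF2, at 20.3 ± 2.03 against 19.8 ± 2.49 CPM, and BMI1, at 57.7 ± 0.65 against 54.5 ± 1.95 CPM, had log2 fold changes of -0.03 and -0.08 (adjusted p = 0.875 and 0.545 by edgeR's quasi-likelihood test). The largest rise was that of BCORL1, a corepressor of a variant PRC1, from 5.84 ± 0.281 to 26.0 ± 0.952 CPM (log2 fold change 2.15, edgeR adjusted p = 1.12e-11). CBX2 and CBX8 fell, with log2 fold changes of -0.89 and -0.48, CBX6 rose with 0.69, and CBX7 at 0.16 did not pass the test. CBX8 overlapped between groups, at 13.7 and 18.2 against 13.8 and 9.21 CPM (edgeR adjusted p = 0.0468). CBX2 went from 24.1 and 24.3 to 12.8 and 13.2 CPM, without overlap. Lower genes also included SCML1 (-1.57), SCML2 (-1.22), PHC2 (-1.11), KDM2B (-0.82), YAF2 (-0.71) and PCGF3 (-0.27), and the other higher genes RYBP and PCGF2 (0.41 and 0.33). The 3' ends of KDM2B and PCGF2 overlap RNF34 and CISD3 on the opposite strand, so their values are uncertain as well. RNF34 fell too, with a log2 fold change of -0.86. PHC2, a polyhomeotic subunit, had 48.2 and 39.9 CPM in the MET+ libraries and 21.0 and 19.7 CPM in the MET-KO libraries.

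Among 12 genes known to oppose Polycomb repression, 3 rose and 6 fell, beside 27.2% and 26.9% of all tested genes, with a median of -0.35. The count of higher genes was 1 without MET+ replicate 2, without MET-KO replicate 2 and with DESeq2's Wald test. The 3 higher genes were KDM6B, ASXL1 (0.45) and KMT2A (0.28). KDM6B, a demethylase of lysine 27, rose from 15.7 and 13.9 to 19.1 and 19.6 CPM (log2 fold change 0.39, edgeR adjusted p = 0.0484). Its call was lost with DESeq2's Wald test (adjusted p = 0.25), without MET+ replicate 2 (adjusted p = 0.233) and without either MET-KO replicate (adjusted p = 0.121 and 0.158). The related KDM6A had 9.79 and 7.08 against 6.57 and 6.91 CPM (edgeR adjusted p = 0.294). SMARCA4, an ATPase of the SWI/SNF remodeller, fell from 254.5 ± 9.45 to 165 ± 5.85 CPM, and SMARCB1 and KMT2B fell as well, at log2 fold changes of -0.63, -0.53 and -0.55.

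Around DNA methylation itself, 14 partners and enzymes of the methyl donor cycle were listed, of which 12 were tested, and 3 rose and 4 fell, beside 27.2% and 26.9% of all tested genes, with a median of -0.15. The count of lower genes was 2 without MET+ replicate 2, without MET-KO replicate 2 and with DESeq2's Wald test. HELLS, a remodeller that DNMT enzymes need at repeats, was at 94.5 and 105.5 against 85.1 and 96.0 CPM, which overlap (edgeR adjusted p = 0.241). CDCA7L, a relative of the HELLS partner CDCA7, rose from 22.1 ± 0.421 to 65.2 ± 0.677 CPM (log2 fold change 1.56) on chromosome 7, whose median was 0.50. MTRR, a reductase of the methionine cycle, fell by 0.77 on the log2 scale on chromosome 5, whose median was -0.43. Among 7 readers of methylated CpG, 4 rose and none was called lower, with a median of 0.37 beside 0.0073 over all tested genes. The share called was 57.1%, close to the 54.1% of all tested genes, of which 27.2% rose and 26.9% fell. The higher readers included MBD2, ZBTB38 and ZBTB33, with log2 fold changes of 0.73, 0.58 and 0.36. MBD2 went from 18.6 and 21.2 to 28.3 and 38.0 CPM and ZBTB38 from 18.1 and 17.4 to 28.2 and 24.8 CPM, and neither overlapped between groups. ZBTB38 overlaps PXYLP1 on the same strand, which had 73 to 142 counts, so its value is uncertain.

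On the side of demethylation and base repair, 15 genes were listed and 14 tested, of which 2 rose and 6 fell, with a median of -0.32. The share called was 57.1%, close to the 54.1% of all tested genes, of which 27.2% rose and 26.9% fell. The count of higher genes was 5 with library totals, 4 with at least 10 counts in every library and 1 with DESeq2's Wald test. IDH1 and IDH2 make 2-oxoglutarate, the cosubstrate of TET enzymes and of KDM6A and KDM6B. IDH2 fell from 173 and 196 to 25.2 and 25.1 CPM (log2 fold change -2.88, edgeR adjusted p = 2.14e-21), the largest change among the 80 tested genes of the 6 lists, on chromosome 15, whose median was -0.43. IDH1 fell from 251 ± 13.3 to 129 ± 8.87 CPM (log2 fold change -0.96). TDG, the glycosylase that removes oxidized methylcytosine, had 36.9 and 38.1 against 40.6 and 49.5 CPM (log2 fold change 0.27, edgeR adjusted p = 0.067). GADD45A, a stress-induced gene with a debated part in demethylation, rose from 55.5 ± 4.67 to 101 ± 5.38 CPM, and the related GADD45B rose by 0.54 on the log2 scale. Over the 6 lists together, 80 of 84 genes were tested and 20 rose and 29 fell, 61.3% beside 54.1% of all tested genes.

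**Figure D4:**
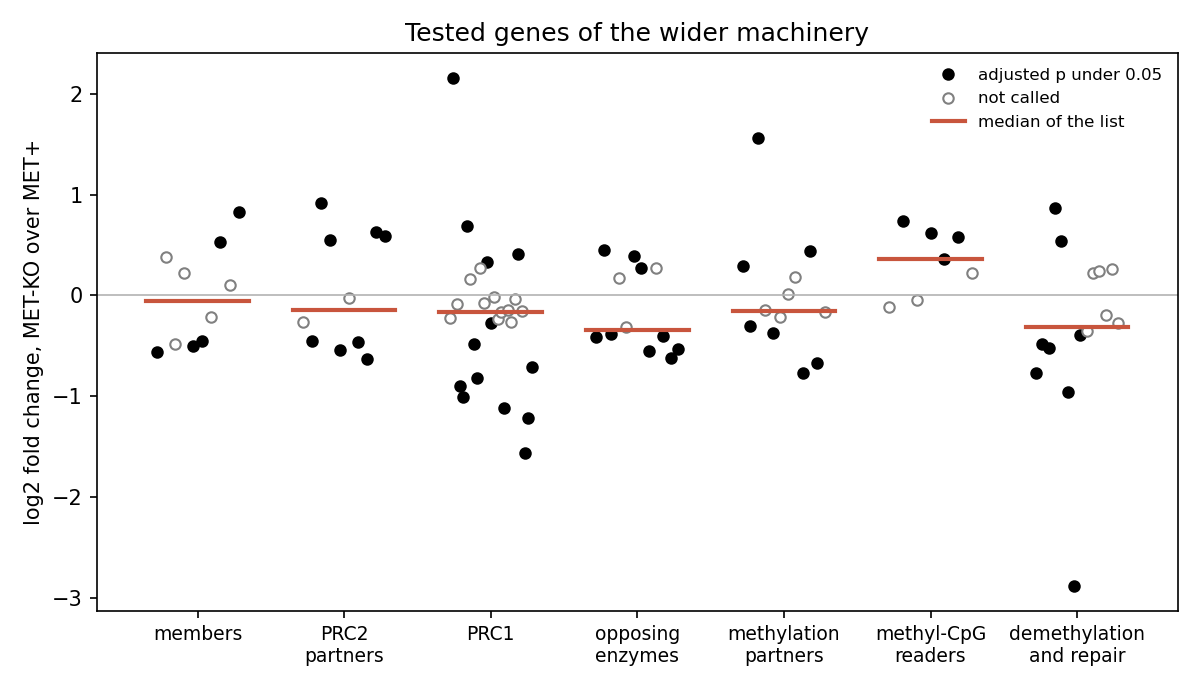
Log2 fold change of MET-KO over MET+ for each tested gene (filled points have an adjusted p under 0.05) of the 10 members and 6 wider lists, with a bar at the median of each. The readers of methylated CpG have a median of 0.37 and the other 5 lists medians between -0.35 and -0.14, and the lowest point is IDH2 at -2.88.

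Genes of the cell cycle were counted in the same libraries, beside 26.9% lower and 27.2% higher of all tested genes. Of 54 genes of G2/M phase, 26 fell and 5 rose, the median log2 fold change being -0.29, and MKI67 went from 290.5 and 292 to 154 and 174 CPM. Of 42 S-phase genes, leaving out UHRF1, which is on that list, 13 fell and 5 rose, with a median of -0.19, and their summed level was 2756 and 2805 against 2755 and 2747 CPM. PCNA, to which DNMT1 binds at replication forks, went the other way, from 188 ± 10.2 to 255 ± 5.13 CPM. The summed CPM of G2/M genes was 5214 and 5250 in MET+ and 4365 and 4556 in MET-KO libraries, and their part in the lower DNMT1, EZH2 and SUZ12 was not tested. In bulk RNA, fewer cells in a state and less RNA per cell cannot be told apart.

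Germline genes that DNA methylation is known to keep silent in somatic cells were checked in the same libraries. Of 21 such genes, 10 had 0 counts in all 4 libraries, among them DAZL, SYCP1, BRDT and DPPA2, and 19 did not reach the filter for testing. The 2 that did so passed through MET+ cells alone, and they were chosen after their values were seen. MAGEA1, a member of a family of similar genes, had 19 and 17 counts in MET+ and 0 in both MET-KO libraries, at least 6.63-fold lower against a floor of 3 counts per library. TEX19 had 27 and 22 counts in MET+ and 4 and 0 in MET-KO libraries. STK31 had 1 and 3 counts in MET+ and 9 and 12 in MET-KO libraries, and 0 counts allow up to 0.356 CPM for the silent genes.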

How the data were processed

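RNA from 2 MET+ and 2 MET-KO samples of LoVo cells was sequenced with the QuantSeq 3' mRNA kit (FWD). The authors deposited 1 file of whole read counts per gene and library, without normalization, with 99 spike-in rows at 0. The submitters' processing notes name bcl2fastq, cutadapt 1.16, STAR 2.5.4a, featureCounts 1.6.2, DESeq2 1.18.1 and GRCh38. The strand setting, the annotation release and the handling of reads in overlaps were not given in the sources used here. Names and positions came from GENCODE 29, which held 58552 of the 58825 gene IDs.

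Counts were tested with edgeR 4.0.16 in R 4.3.3 (filterByExpr by group, TMM, group as the only term, quasi-likelihood test, Benjamini-Hochberg over 13801 genes, threshold 0.05) after a check on simulated counts. Standard errors are the absolute log2 fold change over the square root of F. CPM are TMM-scaled, with factors of 0.949 to 1.06. Cell cycle lists were read from Seurat 5.3.0, and figures drawn with matplotlib 3.10.9. Intervals of shares and the floors cover counting error only, and reads carried no molecular identifiers. Intervals of log2 fold changes come from the standard errors of the edgeR fit and so also take in the spread between replicates. Replicates correlated at 0.985 in MET+ and 0.990 in MET-KO cells across genes (log2 CPM) and differed by more than counting noise, so each counted as 1 sample. The labels call them biological replicates without naming cultures, so p-values measure the spread between these samples.

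Named genes are the 10 members, MET, EZH1, RBBP4, RBBP7, JARID2, RNF2, BMI1, KDM6A, KDM6B, HELLS, UHRF2 and TDG, and from each wider list the 3 called genes that changed most among those with non-overlapping groups whose mean log2 CPM reached 2. SCML2, CBX2, CBX7, CBX8, KDM2B, YAF2, PCGF3, ASXL1, KMT2A, GADD45B, DNMT3L, PHF1, EPOP, LCOR, MTF2, AEBP2, CBX6, RYBP, PCGF2, ZBTB33, MKI67, PCNA and the germline genes were named after their values were seen. Members and lists were chosen with earlier results of these data known. The promoter words were chosen after the calls were seen. Alternatives were DESeq2 size factors, library totals, DESeq2 1.42.0 (Wald test), other filters, a replicate block, thinning, a minimum log2 fold change of 1 and leaving out each library. Some genes of the wider lists are counted but not reported here by name.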

Additional observations from a re-analysis of the deposited data

How the results depend on the processing

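DNMT1, UHRF1 and SUZ12 kept their direction and their call under every alternative run except a minimum log2 fold change of 1, with log2 fold changes of -0.59 to -0.46 for DNMT1, 0.63 to 1.03 for UHRF1 and -0.58 to -0.34 for SUZ12. Leaving out each library in turn, where the lone sample of a group is assumed to vary like the other group, gave -0.74 to -0.30 for EZH2, 0.45 to 0.61 for TET2 and -0.72 to -0.29 for DNMT3B. EZH2 lost its call without MET-KO replicate 1, TET2 lost its call without MET+ replicate 1, without MET-KO replicate 2 and with DESeq2's Wald test (0.53), and DNMT3B gained one without either replicate 2. Scaling by library totals raised the median of all tested genes to 0.11, and DNMT3A (0.48) and EED (0.32) were then called higher. The members called higher numbered 2, and 4 with library totals, 1 with DESeq2's Wald test and 1 to 2 with a library left out. The members called lower numbered 3, and 2 to 4 with a library left out. No member passed a minimum log2 fold change of 1 (0 higher and 0 lower), which left 3355 of all genes. Their median log2 fold change of -0.06 was 0.044 with library totals, -0.18 after thinning and -0.11 to 0.014 with a library left out, so its sign turned with the setting. RNF2 and BMI1, neither called, turned to 0.064 and 0.020 with library totals, and RNF2 to 0.0033 with at least 10 counts in every library and to -0.17 to 0.093 with a library left out. The replicate block gave 7055 called genes in place of 7467 and changed no member's call, and it moved KDM6B to an adjusted p of 0.0671. Replicate numbers were not taken to pair the libraries, whose deviations correlated at -0.022 across genes. Depth limits TET1 most, at 19 to 29 counts a library. Among the wider lists, the genes opposing Polycomb that were called higher also numbered 1 in place of 3 with no filter and with the replicate block.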
